A study of Bos taurus with 8 samples.

Results

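The small subunit of the cytosolic ribosome is built from ribosomal RNA and a set of proteins, most of them encoded by RPS genes. It binds messenger RNA and reads its codons, while the large subunit joins amino acids. Its parts are a head, a body and a platform, between which the message is threaded, and each protein normally occurs as a single copy per ribosome. In early embryos translation runs at first on ribosomes and messages stored in the egg, before the embryo's own genes are switched on. The transcripts described here were all genes of the deposited table with a symbol of RPS and a number with an optional A, X, Y or L, together with RPSA, FAU and RACK1. Ribosomal S6 kinases and mitochondrial ribosomal proteins were left out. The rule found 32 genes of the 16606 in the table. Levels are in CPM, reads scaled to about 1000000 per library. Of the 32 genes 31 reached the mean of 1 CPM needed for a test. RPS27L did not. RPS6 and RPS21 were not analysed here.

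The 8 libraries came from Bos taurus embryos, fertilised in vitro from oocytes of slaughterhouse ovaries, with 2 libraries in each of 4 groups: 4-cell control, 4-cell edited, 8-cell control and 8-cell edited. Edited embryos received PEmax, a prime editor that couples a Cas9 nickase to a reverse transcriptase, with a guide RNA, by injection into the zygote. The edit is named RPL12A148G and lies in the gene of a large-subunit protein. The titles call the same samples base edited, the 4-cell samples carry oocytes as their source label, the share of edited alleles is not given, and the labels do not say whether controls were injected. Each library pools 5 embryos, so that differences between embryos are averaged. Nothing in the labels ties a library to a separate culture, and the p-values below measure the spread between these libraries only.

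The libraries held 33527531 to 35122409 reads on genes. RPL12 itself stood at 159 and 174 CPM in 4-cell controls and at 27.5 and 33.6 CPM in 4-cell edited embryos. In 8-cell embryos its level was 96.3 and 97.6 CPM in controls and 14.1 and 11.9 CPM in edited embryos. Defining transcripts of oocyte and early embryo were abundant in every library: BTG4, a regulator of maternal mRNA decay, lay between 12016 and 37563 CPM, and the 19 listed markers in the table summed to 20016 to 58240 CPM. Transcripts of other cell types were present too and differed between the groups. Their values follow the first result that they move with.

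**Figure D1:**
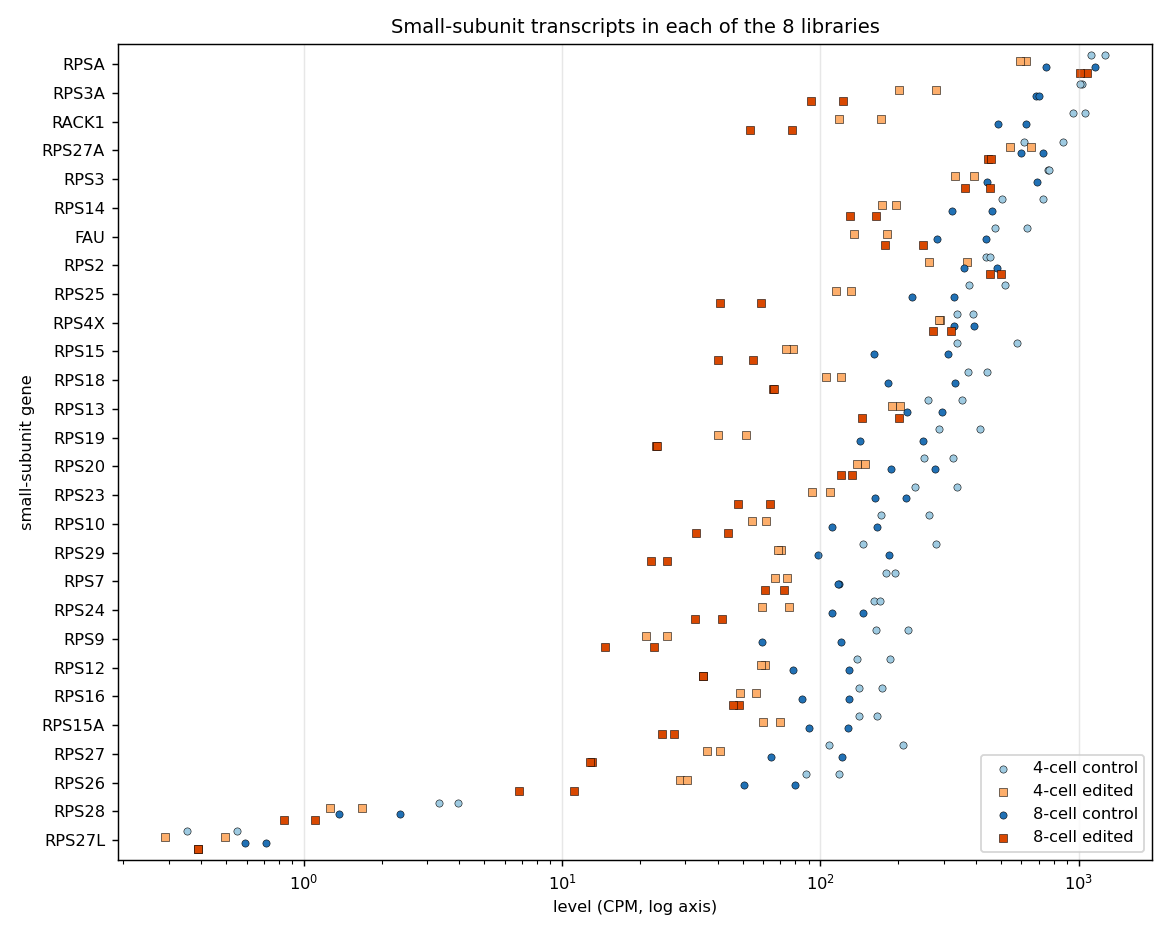
Level of 28 of the 32 small-subunit genes in each library, in CPM on a log axis, with circles for control and squares for edited embryos, light for 4-cell and dark for 8-cell. For most genes the squares lie left of the circles. For RPS2, RPS4X and RPS27A, and for RPSA only at the 8-cell stage, they lie close to or among the circles. RPS28 and RPS27L have few reads.

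The first question was how the transcripts of the small subunit differed between edited and control embryos at the 4-cell stage. They were lower in edited embryos. All 31 tested genes had a negative log2 fold change, with a median of -1.53, where the median over all 12129 tested genes was -0.02. By limma, 27 of the 31 fell at an adjusted p-value under 0.05, where 25.8% of all tested genes were called lower. edgeR and DESeq2 each called 26 lower, where they called 18.4% and 18.9% of their tested genes. None rose, where 18.9% of all tested genes did by limma, 16.9% by edgeR and 14.7% by DESeq2. In 30 of the 31 both edited libraries lay below both control libraries, RPS27A being the exception. That pattern held for 37.5% of all tested genes. The mean level in edited embryos was below 50% of the control mean for 26 genes and below 25% for 7.

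In 8-cell embryos the 31 genes had a median log2 fold change of -1.53, against 0.00 over all tested genes. By limma 23 fell, where 14.5% of all tested genes were called lower, and 0 rose, where 1.08% did. edgeR called 22 lower and DESeq2 23, where they called 10.9% and 12% of their genes lower, and both called 0 higher, where they called 0.656% and 1.42%. The changes of RPSA and RPS2 were positive, at 0.17 and 0.19, and did not pass, also without adjustment (unadjusted limma p-values 0.475 and 0.417). In 28 genes both edited libraries lay below both control libraries, where 32.7% of all tested genes did so, and the other 3 were RPS2, RPS3 and RPSA. The edited mean was below 50% of the control mean for 21 genes and below 25% for 11. Called lower at both stages were 23 genes, where 12.4% of all tested genes were, and in 26 genes every edited library lay below every control library of either stage, where 19.6% of all tested genes did so. In libraries from whole pools, fewer cells of a type and less RNA per cell cannot be told apart.

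Other transcripts moved with these differences. Shares over all tested genes are the reference for the marker lists. At the 4-cell stage limma called 25.8% lower and 18.9% higher, and at the 8-cell stage 14.5% lower and 1.08% higher. Of the 20 listed cumulus and granulosa markers, the genes of the somatic cells that surround the oocyte, 16 were tested: 10 were called lower and 2 higher at the 4-cell stage, and 3 lower at the 8-cell stage. Their summed level was 1625 and 1310.4 CPM in 4-cell controls, 455 and 504 CPM in 4-cell edited, 621 and 855 CPM in 8-cell control and 489 and 461 CPM in 8-cell edited libraries. The steroid-forming enzyme HSD3B1 stood at 283 and 283 CPM in 4-cell controls and 5.87 and 17.8 CPM in 4-cell edited embryos, while HAS2, the hyaluronan synthase of cumulus cells, stood at 24.3 and 55.4 CPM and 132 and 124 CPM in the same groups. LHCGR, the luteinising hormone receptor of granulosa cells, was at or near 0 in every library, with at most 0.06 CPM.

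All 9 fibroblast and stroma markers were tested. In 4-cell embryos 5 were called lower (25.8% of all tested genes), and in 8-cell embryos 6 (14.5% of all tested genes). They summed to 3121 and 6541 CPM in 4-cell controls, 1349.6 and 1996 CPM in 4-cell edited, 3217 and 2674 CPM in 8-cell control and 133 and 792 CPM in 8-cell edited libraries, most of it from LUM, a proteoglycan of connective tissue. Of 6 leukocyte markers in the table the sum lay between 12.5 and 24.0 CPM in all libraries, and 3 were tested. The sum was 16.4 and 12.9 CPM in 8-cell control and 22.1 and 24.0 CPM in 8-cell edited libraries. CD68 was called lower at the 4-cell stage (means 2.31 and 0.465 CPM in control and edited embryos, limma adjusted p-value 0.0411). CD3E was called higher at the 8-cell stage (means 3.59 and 9.68 CPM, limma adjusted p-value 0.0369). Of the 19 oocyte and early embryo markers 7 were called higher and 1 lower in edited embryos at the 4-cell stage. There 18.9% of all tested genes were called higher and 25.8% lower. At the 8-cell stage 2 of these markers were called higher, where 1.08% of all tested genes were. When the mean log2 level of the cumulus and granulosa markers entered the fit as a covariate, limma called 0 of the 31 small-subunit genes lower in 4-cell and 3 in 8-cell embryos, with 11 and 18 at an unadjusted p-value under 0.05 and a median change of -1.12 at both stages. In that fit 0.198% and 0.816% of all tested genes were called lower. The part of these cells in the results below was not tested.

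**Figure D2:**
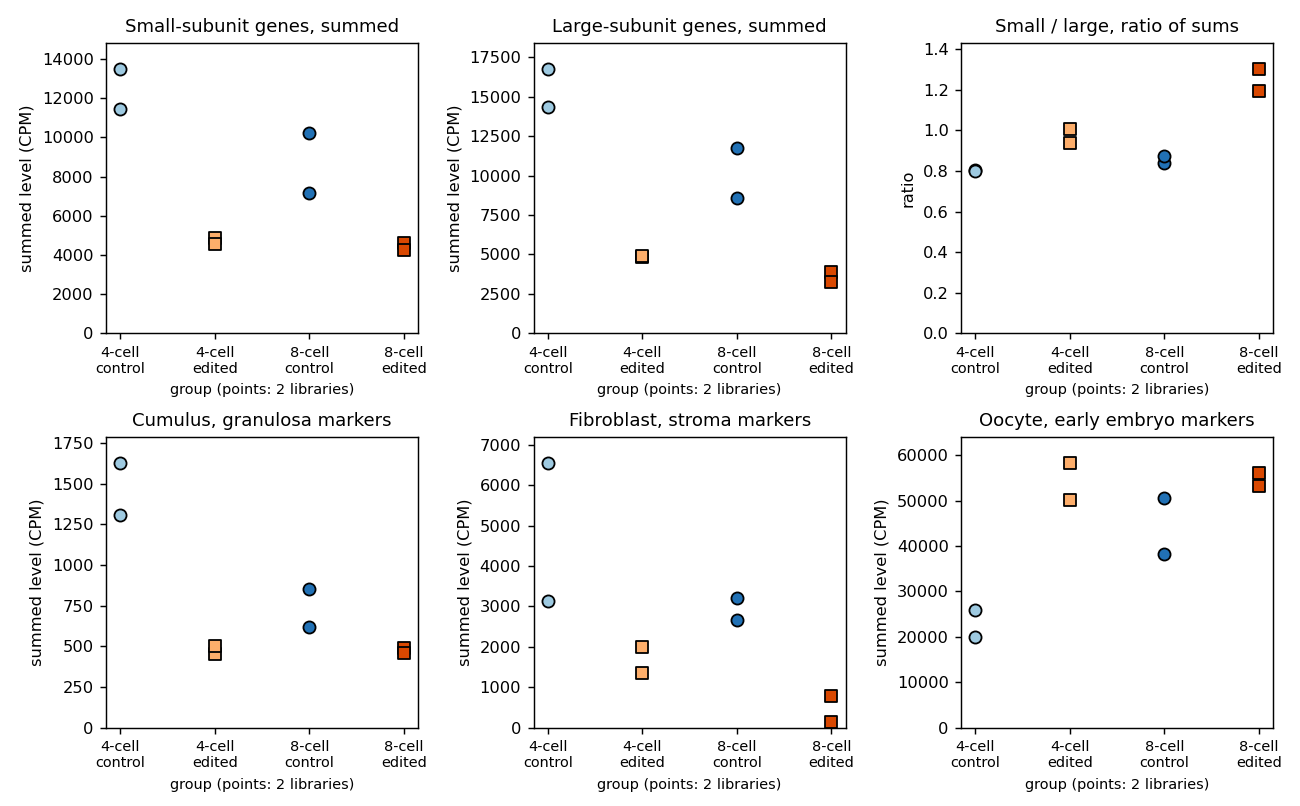
Summed level in each library of the small-subunit genes, the large-subunit genes, and 3 marker lists in CPM, and the ratio of the small-subunit to the large-subunit sum; each point is 1 of 2 libraries per group. Both ribosomal sums and the cumulus and granulosa sum are highest in the 4-cell controls, the fibroblast sum is highest in the second 4-cell control, and the ratio is above 0.93 in the edited and below 0.88 in the control libraries.

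The largest falls at either stage were those of RACK1, RPS19, RPS9, RPS3A and RPS15. RACK1 is a scaffold protein of the head that docks signalling kinases on the ribosome. It stood at 951 and 1063 CPM in 4-cell controls, 118 and 171 CPM in 4-cell edited, 486 and 624 CPM in 8-cell control and 77.5 and 53.2 CPM in 8-cell edited libraries. Every edited library lay below every control library, and the edited mean was 14.3% of the control mean at the 4-cell stage and 11.8% at the 8-cell stage. The log2 fold changes were -2.82 (SE 0.249, limma adjusted p-value 1.16e-06) and -3.08 (SE 0.249, limma adjusted p-value 2.4e-06).

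RPS19 is a head protein needed for processing the RNA of the small subunit and is the gene most often mutated in Diamond-Blackfan anaemia, an inherited failure of red cell formation. Its level was 414 and 289 CPM in 4-cell controls against 40.3 and 51.5 CPM in 4-cell edited embryos, and 143 and 250.4 CPM in 8-cell controls against 23.1 and 23.4 CPM in 8-cell edited embryos. The groups were again separate, with log2 fold changes of -2.90 and -2.97 (limma adjusted p-values 1.69e-06 and 4.65e-06). RPS3A lies on the platform, near where the message leaves the ribosome. It stood at 1027 and 1016 CPM in 4-cell control, 202 and 279.7 CPM in 4-cell edited, 683 and 703 CPM in 8-cell control and 123 and 91.8 CPM in 8-cell edited libraries. It fell by 2.10 and 2.69 on the log2 scale (limma adjusted p-values 3.84e-06 and 2.4e-06), and its groups did not overlap.

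RPS9, a body protein beside the entry of the mRNA channel, had the most negative change of the set at the 4-cell stage, -2.98 (SE 0.324, limma adjusted p-value 4.51e-06). Its levels were 218 and 165 CPM in controls and 21.1 and 25.4 CPM in edited embryos at that stage. Among 8-cell embryos they were 59.3 and 120.0 CPM and 22.7 and 14.7 CPM, and the change was -2.15 (limma adjusted p-value 0.000186). For RPS9 the 8-cell control libraries lay between the 4-cell control and the edited libraries. RPS15, a head protein near the decoding site, stood at 579 and 338 CPM in 4-cell control and 78.7 and 73.6 CPM in 4-cell edited embryos, and at 162 and 313 CPM and 55.0 and 40.3 CPM at the 8-cell stage. It fell by 2.52 and 2.23 on the log2 scale at the stages (limma adjusted p-values 1.29e-05 and 9.36e-05).

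The other head proteins shared the direction. Of the 15 head genes 13 fell at the 4-cell stage and 12 at the 8-cell stage, with median log2 fold changes of -1.84 and -1.81. Of all tested genes limma called 25.8% and 14.5% lower at these stages. RPS25, which viral entry sites on mRNA rely on, changed by -1.84 and -2.45, and RPS29, a small zinc-binding protein, by -1.53 and -2.45. RPS10 and RPS20 are neighbours in the head that are ubiquitylated when ribosomes collide. RPS10 changed by -1.86 and -1.81, and RPS20 by -0.996 and -0.84. RPS20 had the smallest change of the head genes called at both stages. RPS18 changed by -1.84 and -1.89, RPS12 by -1.41 and -1.49, and RPS16 by -1.56 and -1.14. Each of these fell at both stages by limma. Calls at the 8-cell stage for RPS16 and RPS20 did not pass when the second 8-cell control library was left out, and that for RPS20 also not without either 8-cell edited library, without a filter on low values, or with edgeR (edgeR adjusted p-value 0.0593).

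Of the 16 tested body and platform genes 14 fell in 4-cell and 11 in 8-cell embryos, and medians were -1.40 and -1.29. Of all tested genes 25.8% and 14.5% fell by limma at these stages. RPS26, at the exit of the mRNA channel, stood at 119 and 87.7 CPM in 4-cell controls, 28.5 and 30.6 CPM in 4-cell edited, 50.5 and 80.0 CPM in 8-cell controls and 11.1 and 6.80 CPM in 8-cell edited embryos. Both edited groups lay below the controls, with changes of -1.75 and -2.73 (limma adjusted p-values 0.000286 and 1.86e-05). RPS15A, an RNA-binding protein of the body, stood at 166 and 141, 60.1 and 69.6, 90.4 and 128 and 27.2 and 24.4 CPM in the same order of groups. It changed by -1.23 and -2.02 (limma adjusted p-values 0.000843 and 3.37e-05). RPS14 of the platform changed by -1.70 and -1.40. RPS23, which sits at the decoding centre, changed by -1.47 and -1.74, and RPS24 by -1.29 and -1.76. RPS7 changed by -1.39 and -0.81, and its 8-cell call was lost with any of the 4 libraries of that stage left out.

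Further groupings showed counts close to those of the whole set. Over all tested genes limma called 25.8% lower in 4-cell and 14.5% in 8-cell embryos. Of the 15 members with a counterpart in bacteria 14 fell in 4-cell and 11 in 8-cell embryos, with medians of -1.47 and -1.40. Of the 16 tested members without such a counterpart 13 and 12 fell, with medians of -1.78 and -1.78. Among 10 genes linked to Diamond-Blackfan anaemia 9 fell at each stage, with medians of -1.64 and -2.03, and RPS28 was the gene that did not pass. Differences between these groupings were not tested.

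A smaller set of members was not called lower at 1 or both stages, which does not show that their levels were unchanged. RPSA also serves as a receptor for laminin. It stood at 1118 and 1270.5 CPM in 4-cell controls and 627 and 591 CPM in 4-cell edited embryos, which is a change of -0.97 on the log2 scale (SE 0.227, limma adjusted p-value 0.00265). In 8-cell embryos the level was 749 and 1156 CPM in controls and 1080.3 and 1009 CPM in edited embryos, and both edited values lay between the control values. The 8-cell change was 0.17, with a 95% interval of -0.32 to 0.65 (limma adjusted p-value 0.685).

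RPS2, at the entry of the mRNA channel, gave a similar picture. Its levels were 439 and 455 CPM in 4-cell controls, 369 and 263 CPM in 4-cell edited, 360.2 and 484 CPM in 8-cell controls and 501 and 453 CPM in 8-cell edited embryos. The changes of -0.52 (95% interval -1.001 to -0.04) and 0.19 (95% interval -0.29 to 0.67) did not pass (limma adjusted p-values 0.0758 and 0.64). Without the first 4-cell edited library the 4-cell change of RPS2 was -0.76 and passed (limma adjusted p-value 0.0395). Without the first 8-cell control library the 8-cell changes of RPS2 and RPSA were -0.02 and -0.15. RPS3, a head protein at the same channel that also acts in DNA repair, stood at 759 and 765 CPM and 395 and 332 CPM in 4-cell control and edited embryos. Its 8-cell levels were 442 and 691 CPM and 453 and 365 CPM, and the groups overlapped. It fell at the 4-cell stage (-1.07, limma adjusted p-value 0.00167) and had a change of -0.44 at the 8-cell stage (95% interval -0.94 to 0.06, limma adjusted p-value 0.252).

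RPS27A and FAU are made as fusions, of ubiquitin and of a ubiquitin-like protein respectively, from which the ribosomal part is cut. RPS27A stood at 871 and 617 CPM in 4-cell controls, 652 and 542 CPM in 4-cell edited, 598 and 728 CPM in 8-cell controls and 444 and 458 CPM in 8-cell edited embryos. The 4-cell groups overlapped and the 8-cell groups did not. Neither change passed, at -0.30 (95% interval -0.78 to 0.17) and -0.55 (95% interval -1.02 to -0.07). FAU stood at 632 and 476 CPM and 182 and 136 CPM in 4-cell control and edited embryos, and fell there (-1.80, limma adjusted p-value 6.39e-05). In 8-cell embryos it stood at 282 and 439 CPM in controls and 178 and 249 CPM in edited embryos. The groups did not overlap, and the change of -0.74 did not pass (95% interval -1.30 to -0.18, limma adjusted p-value 0.0729), although it was called with the first 8-cell control library or either 4-cell control library left out.

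RPS13, an RNA-binding protein of the body that faces the large subunit, stood at 355 and 262 CPM in 4-cell controls and 203 and 189 CPM in 4-cell edited embryos. The 8-cell values were 217 and 295 CPM and 201 and 145 CPM. The groups were separate at each stage. Its 4-cell change of -0.64 passed narrowly (limma adjusted p-value 0.044) and was lost under 12 of 18 other settings, among them edgeR and DESeq2, whereas the 8-cell change of -0.56 did not pass (limma adjusted p-value 0.147). RPS28, another protein of the exit region, had few reads, 28 to 137 per library. It stood at 3.97 and 3.34 CPM in 4-cell controls, 1.68 and 1.26 CPM in 4-cell edited, 1.37 and 2.37 CPM in 8-cell controls and 1.11 and 0.839 CPM in 8-cell edited embryos. Its changes of -0.92 and -0.52 did not pass, and the log2(CPM + 1) scale understates changes at this level.

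**Figure D3:**
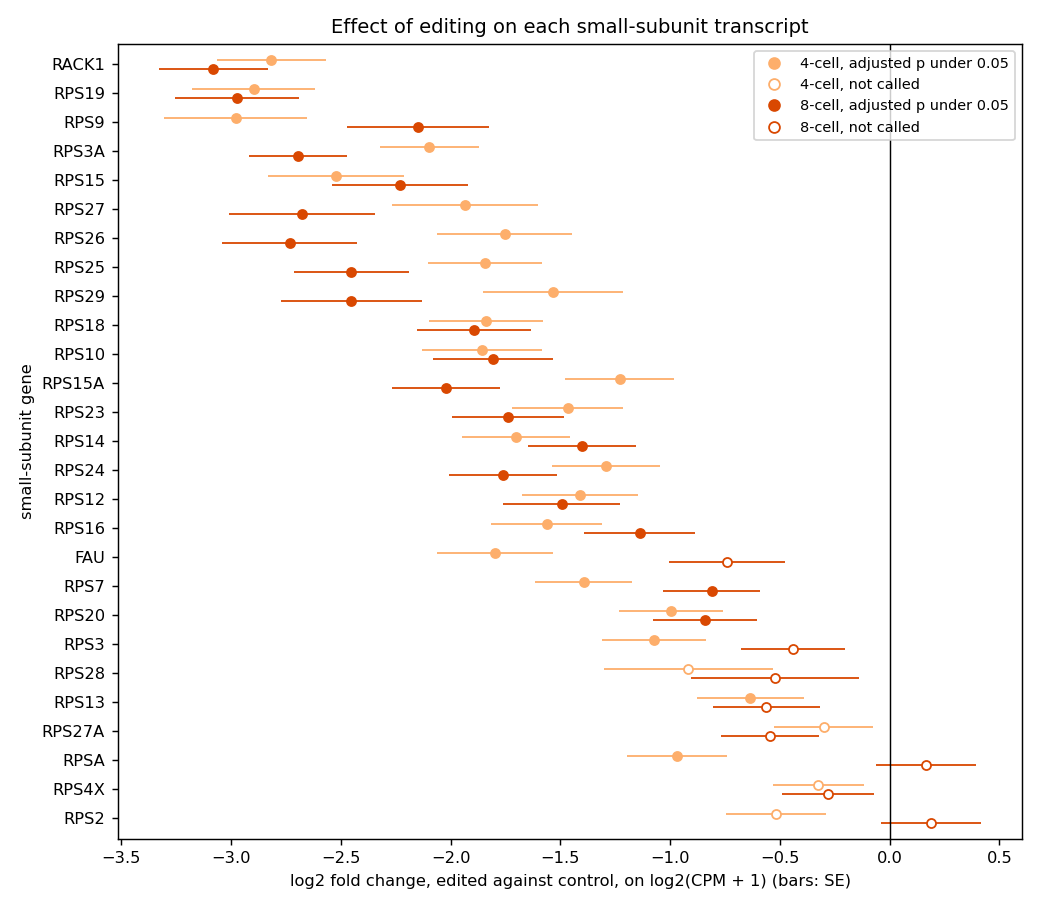
Log2 fold change of edited against control embryos on the log2(CPM + 1) scale for 27 of the 31 tested small-subunit genes, ordered by the sum over the stages; points are the 4-cell (light) and 8-cell (dark) values, bars the standard error, and filled points passed an adjusted p-value under 0.05 by limma. By this sum RACK1, RPS19 and RPS9 lie furthest to the left, and RPS2, RPS4X, RPSA and RPS27A nearest to 0. The 4-cell value of RPSA alone is -0.97.

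Whether members differed from the mean of their own set was tested next. Each library was centred on the mean log2 level of the 31 genes and the same limma fit was run over all genes. This scaling was chosen after the values had been seen. Each tested gene is itself part of that mean, so some members must lie above it and others below. At the 4-cell stage 4 genes fell further than the mean of the set, RPS9, RPS19, RACK1 and RPS15. Their relative changes ranged from -1.41 for RPS9 (SE 0.351, limma adjusted p-value 0.00126) to -0.96 for RPS15 (limma adjusted p-value 0.0165). Another 4 were higher relative to it: RPS27A by 1.27, RPS4X by 1.24, RPS2 by 1.05 and RPS13 by 0.93 (limma adjusted p-values 0.00252 to 0.016). On this scale 5.43% of all tested genes were called lower and 69.8% higher, since nearly all genes lay above the set.

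Among 8-cell embryos 7 genes were lower relative to the set, where 2.69% of all tested genes were: RACK1, RPS19, RPS26, RPS3A, RPS27, RPS29 and RPS25. RACK1 had a relative change of -1.57 (limma adjusted p-value 0.000751) and RPS26 one of -1.22 (limma adjusted p-value 0.00375). Higher relative to it were also 7, where 76.8% of all tested genes were: RPS2, RPSA, RPS4X, RPS3, RPS28, RPS27A and RPS13. RPS28 lay at 0.839 to 2.37 CPM at this stage, where log2(CPM + 1) understates a fall and so raises the relative value. Of the summed small-subunit CPM, RPS28 held 0.0192 and 0.0231% in 8-cell controls and 0.0239 and 0.0197% in 8-cell edited libraries, which overlap. RPS2 had a relative change of 1.70 and RPSA one of 1.68 (limma adjusted p-values 0.000406 and 0.000454). RACK1 and RPS19 were thus lower, and RPS2, RPS4X, RPS27A and RPS13 higher, than the set's mean at both stages.

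The makeup of the summed small-subunit CPM shows the same values as shares. Among 4-cell embryos RPSA held 8.28% and 11.1% of it in the controls, against 12.9% and 12.9% after editing. Among 8-cell embryos it held 10.5% and 11.3% in the controls, against 23.3% and 23.7% after editing. RPS2 held 3.25% to 5.03% in the 4 control libraries, 7.59% and 5.75% in the 4-cell edited pair and 10.8% and 10.7% in the 8-cell edited pair. RACK1 went the other way, with 6.11% to 9.28% in the 4 control libraries, 2.42% and 3.74% in the 4-cell edited pair and 1.67% and 1.25% in the 8-cell edited pair. Of the 32 genes 7 had a higher share in every edited library than in any control library, and 14 a lower share. No such rate over all genes was computed on this scale, so whether these counts are unusual cannot be told. As parts of the same sum, some shares must rise where others fall. The shares rest on the same reads as the fold changes and are not further evidence.

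**Figure D4:**
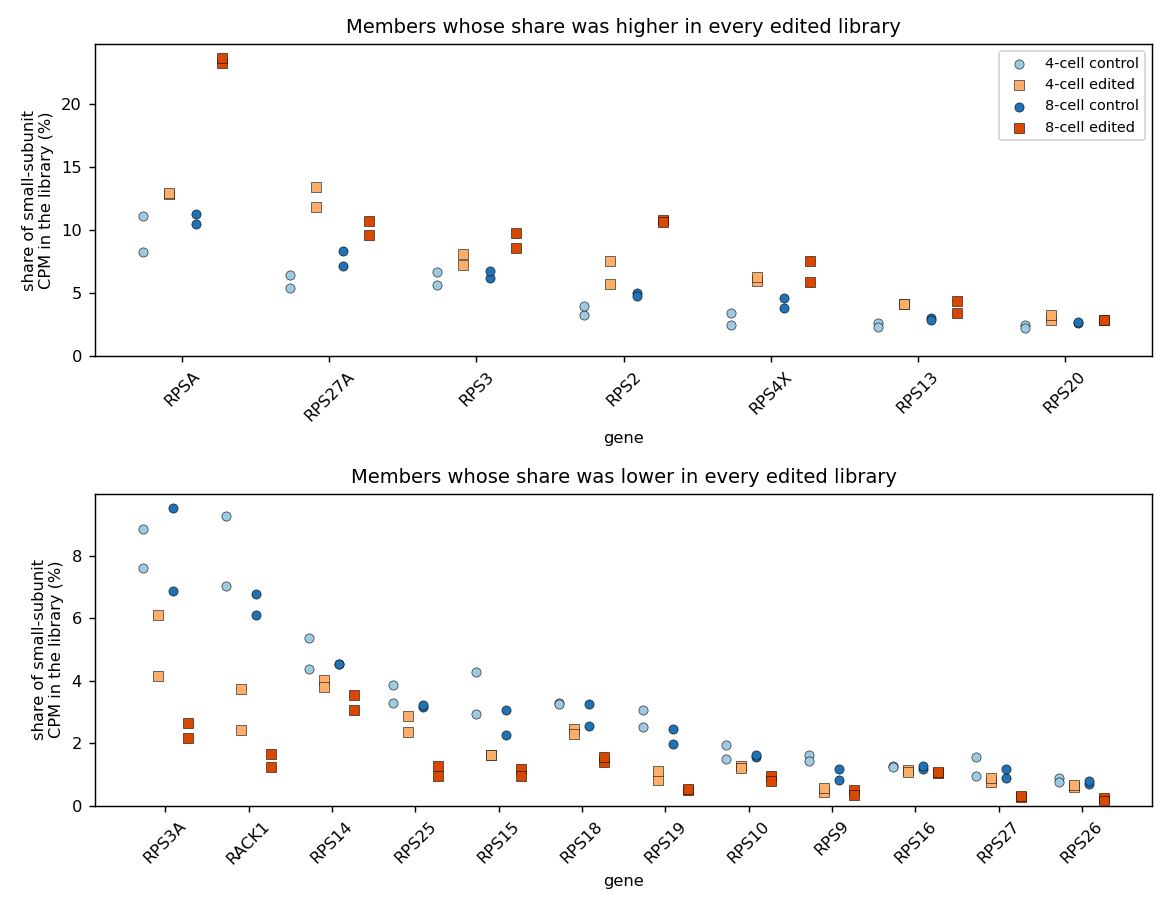
Share of the summed small-subunit CPM held by each gene, in percent, for the 7 genes whose share was higher (top) and 12 of the 14 whose share was lower (bottom) in every edited library than in any control library; points are single libraries. RPSA reaches 23.3% and 23.7% in the 8-cell edited libraries, against at most 11.3% in controls.

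Paralogs allowed a comparison between near-identical proteins. RPS4X encodes a body protein, and RPS4Y1, which the rule does not take in because of its last digit, encodes a version of the same protein. RefSeq lists both as protein-coding in cattle and, despite its name, places RPS4Y1 on an autosome. RPS4X stood at 338 and 389 CPM in 4-cell controls, 291 and 287 CPM in 4-cell edited, 329 and 393 CPM in 8-cell controls and 273 and 321 CPM in 8-cell edited embryos. RPS4Y1 stood at 384 and 380.4, 103 and 126, 234 and 258 and 99.8 and 98.9 CPM in the same order. RPS4X was among the least changed, at -0.33 (95% interval -0.77 to 0.12) and -0.28 (95% interval -0.72 to 0.16), neither of which passed. RPS4Y1 fell at both stages, by 1.74 and 1.30 on the log2 scale (limma adjusted p-values 1.12e-05 and 0.000347).

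The ratio of RPS4X to RPS4Y1 CPM within a library lay between 0.881 and 1.52 in the 4 control libraries and between 2.28 and 3.25 in the 4 edited libraries, without overlap. Averaged over the stages the log2 ratio was 1.22 higher in edited embryos. This is a description of a pair: with 36 regroupings within the stages no exact two-sided permutation test could go below a p of 0.0556. How reads shared by such copies were assigned is not stated, so levels of the pair, and of members with processed pseudogenes, carry that uncertainty.

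**Figure D5:**
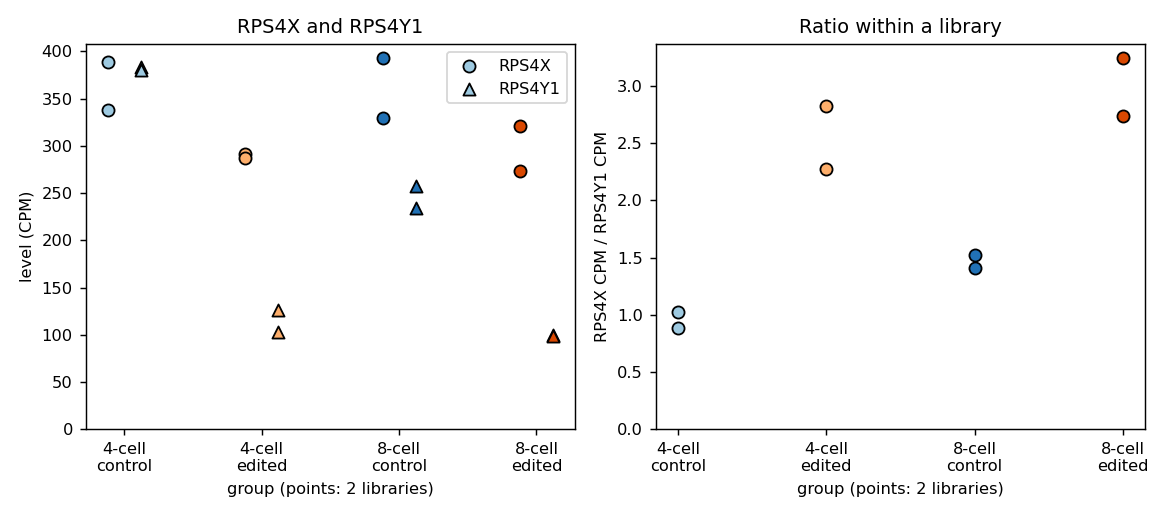
Level of RPS4X (circles) and RPS4Y1 (triangles) in CPM (left) and their ratio (right) in each of 2 libraries per group. RPS4Y1 is lower in edited libraries at each stage while RPS4X stays between 273 and 393 CPM, and the ratio is above 2.2 in edited and below 1.6 in control libraries.

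RPS27 and RPS27L form another pair, in which RPS27L is known as a target of p53. RPS27 stood at 209.6 and 108 CPM in 4-cell controls, 36.5 and 40.8 CPM in 4-cell edited, 64.2 and 122 CPM in 8-cell controls and 13.1 and 12.9 CPM in 8-cell edited embryos. It fell at both stages (-1.94 and -2.68, limma adjusted p-values 0.000241 and 3.74e-05). RPS27L stood at 0.551 and 0.352, 0.289 and 0.497, 0.715 and 0.591 and 0.388 and 0.389 CPM in the same order, which is 10 to 25 reads per library. With edgeR, which kept the gene, its changes of -0.06 and -0.70 did not pass (edgeR adjusted p-values 0.977 and 0.754), and at this depth a difference was not detectable.

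The next question was how the transcripts differed by stage. In control embryos the 8-cell libraries tended to hold less of these transcripts than the 4-cell libraries. All 31 changes were negative, with a median of -0.64 where the median of all tested genes was 0.01, and in 22 genes both 8-cell libraries lay below both 4-cell libraries, where 30.8% of all tested genes did so. By limma only 2 fell, where 6.27% of all tested genes did, and 20 had an unadjusted p-value under 0.05. They were RPS9 (-1.16, limma adjusted p-value 0.0396) and RACK1 (-0.87, limma adjusted p-value 0.0424). RPS15 came next, with -0.97 and a limma adjusted p-value of 0.0585. edgeR called 0 (12 at an unadjusted p-value under 0.05), where it called 0.417% of its genes lower, and DESeq2 called 6, where it called 7.47%. The median change of the members was -0.43 without the first and -0.81 without the second 4-cell control library. It was -0.31 without the first and -0.93 without the second 8-cell control library. Over all tested genes the median lay between -0.05 and 0.05 in these fits. The 4 control libraries also enter the comparisons with edited embryos.

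In edited embryos the stage changes were spread more widely, from -1.65 for RPS26 to 0.78 for RPSA, with a median of -0.40. By limma 7 fell from the 4-cell to the 8-cell stage, where 3.73% of all tested genes did: RPS26, RPS15A, RPS3A, RPS25, RPS29, RACK1 and RPS27. RPS26 changed by -1.65 (limma adjusted p-value 0.00888), RPS15A by -1.30 (limma adjusted p-value 0.00995) and RPS3A by -1.16 (limma adjusted p-value 0.0106). edgeR called 6 and DESeq2 12 lower, where they called 1.76% and 5.85% of their genes. In 21 genes both 8-cell libraries lay below both 4-cell libraries, where 30.2% of all tested genes did so. RPSA and RPS2 went the other way, with both 8-cell libraries above both 4-cell libraries, at 0.78 (limma adjusted p-value 0.0576) and 0.61 (limma adjusted p-value 0.131). Higher non-overlapping values were seen for 22.7% of all tested genes, and limma called 1.45% higher. RPSA did pass with DESeq2 (DESeq2 adjusted p-value 0.0475), which called 1.9% of its genes higher, and by limma without any 1 of the 4 control libraries (limma adjusted p-values 0.0302 to 0.0406). With only the edited libraries fitted both RPSA and RPS2 passed (limma adjusted p-values 0.00458 and 0.0381). Relative to the mean of the set both passed, at 1.31 and 1.15 (limma adjusted p-values 0.0337 and 0.0491), where 6.43% of all tested genes were called higher. The median change of the members was -0.46 without the first and -0.53 without the second 4-cell edited library. It was -0.62 without the first and -0.40 without the second 8-cell edited library. Over all tested genes the median lay between -0.12 and 0.02 in these fits.

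The difference of the editing effect between the stages was tested as an interaction. By limma 0 of the 31 genes passed, where 3.96% of all tested genes did, and 5 had an unadjusted p-value under 0.05. edgeR called 0 (4 at an unadjusted p-value under 0.05), where it called 0.123% of its genes, and DESeq2 called 1, where it called 6.24%. RPSA was nearest, with an 8-cell effect 1.13 above the 4-cell effect (SE 0.321, 95% interval 0.45 to 1.82, limma adjusted p-value 0.0583). It was the gene called by DESeq2, and by limma without the second 8-cell control library (1.45, limma adjusted p-value 0.0237). FAU differed by 1.06 (limma adjusted p-value 0.108) and passed without the second 4-cell control library (1.26, limma adjusted p-value 0.0387). RPS26 had the most negative value, -0.98 (limma adjusted p-value 0.191).

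The partner subunit was set beside the small one. Of 46 large-subunit genes limma called 42 lower in 4-cell and 41 in 8-cell embryos, with medians of -1.80 and -1.88. Of all tested genes it called 25.8% and 14.5% lower at these stages. Of all reads the 32 small-subunit genes made up 1.34 and 1.15% in the 4-cell controls, against 0.490 and 0.459% after editing, and 0.713 and 1.02% in the 8-cell controls, against 0.462 and 0.423% after editing. The ratio of the summed small-subunit to the summed large-subunit CPM was 0.806 and 0.797 in 4-cell controls and 1.005 and 0.936 in 4-cell edited embryos. Among 8-cell embryos it was 0.837 and 0.871 in controls and 1.20 and 1.30 in edited embryos, so that every edited library lay above every control library. The 2 sums were not compared by a test. Of 28 genes for the small subunit of the mitochondrial ribosome 18 fell and 2 rose at the 4-cell stage, where 25.8% and 18.9% of all tested genes did. At the 8-cell stage 9 fell, where 14.5% of all tested genes did. The medians were -0.93 and -0.45.

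For the lists that follow, the shares over all tested genes by limma were 25.8% lower and 18.9% higher at the 4-cell stage, and 14.5% lower and 1.08% higher at the 8-cell stage. Of 29 small-subunit maturation factors 7 fell and 6 rose at the 4-cell stage, and 2 fell at the 8-cell stage, with medians of 0.02 and 0.06, so that this list as a whole was near those shares at the 4-cell stage and below them at the 8-cell stage. RPS19BP1, a binding partner of RPS19, went from a mean of 188 CPM in 4-cell controls to 25.1 CPM in edited embryos (-2.84, limma adjusted p-value 1.31e-06) and also fell at the 8-cell stage (-1.94, limma adjusted p-value 7.98e-05). IMP3 and IMP4, which act with the U3 RNA in cutting the precursor, fell at the 4-cell stage by 2.23 and 1.81 on the log2 scale (limma adjusted p-values 0.00012 and 0.000282). EMG1, which modifies the rRNA of the subunit, changed by -1.71. RIOK3, a kinase of late precursors, rose from 545 to 1439 CPM (1.41, limma adjusted p-value 0.000113), and UTP20, of the early processing complex, rose by 1.52. KRR1, another processing factor, fell at the 8-cell stage (-1.06, limma adjusted p-value 0.0283), and its 4-cell change of -0.35 did not pass.

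Of 13 enzymes and partners of small-subunit ubiquitylation 3 fell and 3 rose at the 4-cell stage, and 1 fell and 1 rose at the 8-cell stage, again near the shares over all genes. USP21, which removes ubiquitin from RPS10 and RPS20, fell at both (-1.91 and -1.33, limma adjusted p-values 1.01e-05 and 0.000559). ASCC3, a helicase that splits collided ribosomes, rose by 0.99 at the 4-cell stage (limma adjusted p-value 0.0138), and ASCC2, its partner that binds ubiquitin, fell by 2.25 on the log2 scale (limma adjusted p-value 0.00116). Among 13 tested genes of the mTORC1 and S6 kinase pathway 3 fell and 1 rose at the 4-cell stage, and 1 fell at the 8-cell stage, which is at or below those shares. EIF4EBP1, the translational repressor under mTORC1, stood at a mean of 100.7 CPM in 4-cell controls and 14.6 CPM in edited embryos, and at 56.0 and 7.57 CPM at the 8-cell stage (-2.70 and -2.71). Ribosomal protein transcripts belong to the TOP mRNAs, which start with a run of pyrimidines and are translated under mTORC1 control. Of 14 other TOP mRNAs tested 6 fell and 2 rose at the 4-cell stage and 4 fell at the 8-cell stage, with medians of -0.57 and -0.28. The elongation factor subunits EEF1B2 and EEF1G fell by 2.14 and 2.15 on the log2 scale at the 4-cell stage, whereas the initiation factor subunit EIF3E rose by 1.07 and NPM1, a nucleolar chaperone, by 0.69 (limma adjusted p-values 0.00103 and 0.0113). These lists are described by counts and medians only, and differences between them and the small-subunit genes were not tested.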

How the data were processed

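Full-length cDNA from polyadenylated RNA was tagmented with a Nextera XT kit, per the labels' protocols. The submitters' processing notes name Trim Galore 0.6.7, HISAT2 2.2.1 and featureCounts 2.0.1; genome build, annotation, strand setting and treatment of multi-mapping reads are not given in the sources used here. The deposited values are CPM, although the table is named for counts: each positive value (100%) divided by its library's step gives a whole number of reads to within 0.05. Library totals were 992528 to 1007024 CPM, so the scaling was not to exactly 1000000. Of 12 columns, 4 match no sample and were not used.

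limma 3.58.1 (R 4.3.3) was fitted with an intensity trend to log2(CPM + 1) of 12129 genes (mean over libraries 1 CPM or more), with 1 mean per group over all 8 libraries and Benjamini-Hochberg adjustment over all genes. A fold change on this scale understates changes of weak genes. Alternatives were edgeR 4.0.16 and DESeq2 1.42.0 on the recovered reads (of 14629 genes edgeR called 2694 lower and 2478 higher in 4-cell and 1599 lower and 96 higher in 8-cell edited embryos), other pseudocounts, filters and scalings, a replicate block, a marker covariate, fits of only the libraries compared and leaving out each library. The script was tested on simulated data. With 33527531 to 35122409 reads per library, 3 reads are 0.0858 to 0.0899 CPM. Gene lengths were not used here, so levels are not compared between genes. Any member could be named; values in every library were given by a rule (the 3 smallest p-values per comparison, the 3 largest per editing comparison, members not called at a stage, paralogs, fusions, RPSA and RACK1). Members and lists were chosen with earlier results of these data known. Values of 4 members are not reported here singly and are not drawn, and counts, medians and sums include them.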

Additional observations from a re-analysis of the deposited data

How the results depend on the processing

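Under 18 alternatives other than the covariate, 26 of the 27 genes called at the 4-cell stage kept direction and call in all (RPS13 did not), and 18 of the 23 at the 8-cell stage, where RPS7, RPS16 and RPS20 were among the 5 that did not. The replicate block gave counts of 26, 23, 2, 7 and 0 (4-cell, 8-cell, control stage, edited stage, difference between stages). Counts without it were 27, 23, 2, 7 and 0. The log2 difference between a group's 2 libraries, first minus second, was correlated over all tested genes between the 2 groups of a comparison. These correlations of differences were 0.11, -0.09, -0.30 and 0.02 in the first 4 comparisons. With the 8-cell control numbers crossed the last 3 counts were 8, 10 and 1. Of all tested genes 1690, 872 and 864 were then called in either direction. The marker covariate gave 0 at the 4-cell stage, 3 at the 8-cell stage and 0 for the control stage comparison; the cause was not tested. Relative to the small-subunit mean the counts lower were 4, 7, 0 and 0, by construction. For the control stage comparison the count was 0 with a pseudocount of 0.1 CPM, 4 with 5 CPM, 0 without a filter, 0 with edgeR, 6 with DESeq2, 1 with TMM scaling and 0 with only the libraries compared. In the same order 595, 1573, 1, 86, 1629, 998 and 173 of all genes were called in either direction. For the edited stage comparison the count was 0 without a filter, 12 with DESeq2 and 12 with only the libraries compared. Of all genes 17, 1286 and 1226 were then called in either direction. RPSA was also called higher with a mean of at least 10 CPM and with the crossed numbers. The difference between stages gave 1 with a mean of at least 10 CPM and 1 with DESeq2, RPSA in both. RPS28 passed at the 4-cell stage with a pseudocount of 5 CPM and RPS27A at the 8-cell stage with only the libraries compared (limma adjusted p-values 0.0418 and 0.0482). Leaving out each library gave 26 to 27 at the 4-cell stage, 18 to 24 at the 8-cell stage, 0 to 11 in each stage comparison and 0 to 1 for the difference. The 8-cell changes of RPS2 and RPSA reversed to -0.023 and -0.15 (limma adjusted p-values 0.976 and 0.792) without the first 8-cell control library, and were 0.40 and 0.48 without the second. Quantile normalization moved the median of all genes to 0.23 and 0.20 at the stages, and that of the small-subunit genes was -1.45 and -1.39.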
